A study of Setaria viridis with 11 samples.

Results

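Of the 40599 transcripts counted in *S. viridis* leaves, 4 were well represented in every control plant and nearly absent from every heat-stressed plant. They were chosen by their counts alone, as the transcripts with at least 100 counts in each of the 5 control plants and at most 20 counts in each of the 6 heat plants. These are Si001231m, Si021416m, Si023321m and Si029974m. The last is named ACHT4 (atypical cysteine histidine-rich thioredoxin) in the study's list of oxidative stress genes. The other 3 are in none of the study's lists used here and are given by identifier only. Because the heat and control counts chose these transcripts, the difference between the groups is described for them and not tested. The limits themselves fix that the groups do not overlap and leave a gap between 20 and 100 counts.

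All 11 plants were wild-type A10, a genotype of a C4 grass, and were 28 days old at harvest. The heat plants spent their first 2 weeks under control conditions. They spent the next 2 weeks in a different growth chamber set to 42 °C in daytime and 32 °C at night. The control plants stayed at 28 °C in daytime and 20 °C at night. This control night value follows the study's methods, and its results and figures give a slightly higher one. Each condition had its own chamber, so that heat and chamber cannot be told apart. RNA came from leaves, and the reads were counted on transcripts of a related species, *S. italica*. In such bulk samples, fewer cells that express a transcript and less RNA per cell cannot be told apart.

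Thioredoxins are small proteins that reduce or oxidise disulfide bonds in other proteins, and in chloroplasts they couple enzyme activity to light. The atypical ACHT branch of the family is found in chloroplasts. In Arabidopsis, ACHT4 acts on the small subunit of ADP-glucose pyrophosphorylase, the enzyme of the first committed step of starch synthesis.

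Total counts per plant were 34731849 to 47441261 under heat and 34362084 to 54011056 under control conditions. The chloroplast transcript psbA (Si020824m), which encodes the D1 protein of photosystem II, took 46.1% to 48.5% of the counts in heat plants and 61.8% to 69.6% in control plants. This left 18555605 to 24411265 counts for all other transcripts in heat plants and 10708257 to 16556078 in control plants, so the limit of 20 counts was set in libraries with more room than those that had to reach 100 counts. Control plant 2 stood apart in the counts listed for reads aligned to several places. These were 59.1% of all its counts, with the lines that name no transcript included. The share was 20.2% to 30.8% in heat plants and 15.4% to 34.6% in the other control plants. The 6 leaf markers examined, among them the Rubisco large subunit and phosphoenolpyruvate carboxylase, had at least 835 counts in every plant. With TMM factors (trimmed mean of M-values, which equalise the bulk of the transcripts between libraries), 5 of the 6 were lower under heat (edgeR adjusted p under 0.05), with log2 fold changes of -0.61 to -1.30, and with library size only 1 was called, the Rubisco large subunit, at 0.45 (adjusted p = 0.00541). Their part in the results was not tested. As a rough check for stem or vascular tissue, 18 cellulose synthase transcripts were summed, a group that marks no named cell type. Their level was 5.76 to 7.93 counts per 1000000 (CPM) in heat plants and 4.07 to 7.70 CPM in control plants. Of the 18, 6 were tested. With TMM factors 2 were higher under heat and 0 lower, where 32.2% of all tested transcripts were higher. With library size only 5 were higher, where 73.2% of all were. The part of this level in the results was not tested.

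Si001231m had 7, 5, 7, 13, 11 and 17 counts in heat plants 1 to 6, against 398, 331, 728, 849 and 743 counts in control plants 1 to 5. It had the most control counts of the 4, which are not corrected for transcript length, and its lowest control count was 19.5 times its highest heat count. After scaling with TMM factors its level was 0.183 ± 0.0995 CPM in heat plants (SD, n = 6) and 19.8 ± 3.84 CPM in control plants (SD, n = 5). The level under heat was 0.923% of the control level, the lowest percentage among the 6018 transcripts with at least 100 counts in every control plant. The log2 fold change fitted by edgeR was -6.79 ± 0.27 (SE), about 111-fold lower. By this value it was at rank 7 among all 18065 tested transcripts, counted from the largest fall. Both places rest on the counts that the rule used and are descriptions only.

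Si021416m had 6, 3, 12, 5, 8 and 9 counts in heat plants 1 to 6, against 201, 151, 325, 263 and 285 counts in control plants 1 to 5. It had the lowest single count of the set, 3 counts in heat plant 2, and the groups were separated by 12.6 times between the highest heat and the lowest control count. Its level was 0.127 ± 0.0583 CPM under heat (SD, n = 6) and 8.13 ± 0.849 CPM in control plants (SD, n = 5), and its log2 fold change was -5.99 ± 0.23 (SE). The heat level was 1.57% of the control level.

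Si023321m had 14, 7, 11, 7, 9 and 7 counts in heat plants 1 to 6, against 115, 204, 287, 244 and 211 counts in control plants 1 to 5. Control plant 1 was well below the other control plants but still 8.21 times above the highest heat plant. The level was 0.158 ± 0.0377 CPM under heat (SD, n = 6) and 7.25 ± 2.25 CPM in control plants (SD, n = 5), with a log2 fold change of -5.48 ± 0.25 (SE). Heat plants held 2.19% of the control level.

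ACHT4 (Si029974m) had 8, 18, 12, 20, 7 and 12 counts in heat plants 1 to 6, against 152, 160, 325, 293 and 216 counts in control plants 1 to 5. Heat plant 4 stood exactly at the limit of 20 counts, and the gap to the lowest control plant was 7.60 times, the narrowest of the set. ACHT4 reached 0.227 ± 0.101 CPM in heat plants (SD, n = 6) and 7.61 ± 1.52 CPM in control plants (SD, n = 5), so that 2.98% of the control level was left under heat. Its log2 fold change was -5.07 ± 0.25 (SE), about 33.5-fold lower.

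**Figure D1:**
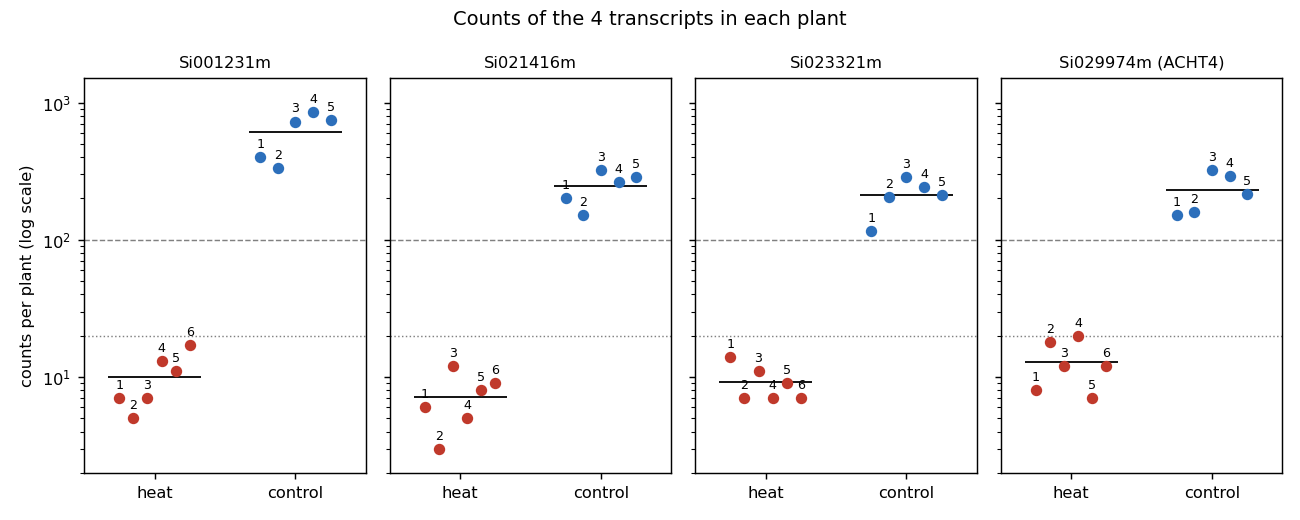
Counts of the 4 transcripts in each plant on a log scale, with heat plants in red on the left and control plants in blue on the right of each panel. Numbers are plant numbers, horizontal bars are group means, the dotted line is the limit of 20 counts and the dashed line that of 100 counts. No heat plant exceeds 20 counts and no control plant is below 115 counts. That the groups do not overlap in any panel is fixed by the limits that chose the 4 transcripts.

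With libraries scaled to their total counts only, the log2 fold changes were -5.77 for Si001231m, -4.96 for Si021416m, -4.45 for Si023321m and -4.04 for ACHT4. This scaling moved the median of all tested transcripts to 1.07, against 0.02 with TMM factors, so all values move together.

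The set took a very small share of each library. Together the 4 transcripts had 33 to 45 counts in a heat plant, or 7.38e-05% to 0.000130% of the library, and 846 to 1665 counts in a control plant, or 0.00192% to 0.00385%. Per 1000000 counts other than psbA, this was 1.84 ± 0.413 in heat plants (SD, n = 6) and 86.8 ± 16.5 in control plants (SD, n = 5). Si001231m gave 39.1% to 51.5% of the set's counts in each control plant, and ACHT4 14.8% to 19.5%. In heat plants the counts were more even, with 15.2% to 37.8% from Si001231m and 20.0% to 54.5% from ACHT4. The wide ranges under heat come with totals of 33 to 45 counts per plant.

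None of the 4 reached 0 counts in any heat plant. Summed over the 6 heat plants, and without correction for length, ACHT4 had the most counts, 77 (95% Poisson interval 60.8 to 96.2), followed by Si001231m with 60 (45.8 to 77.2), Si023321m with 55 (41.4 to 71.6) and Si021416m with 43 (31.1 to 57.9). These intervals cover counting error only, and those of neighbours in this order overlap. No heat plant carried the highest count of more than 1 of the transcripts: the highest was in plant 6 for Si001231m, plant 3 for Si021416m, plant 1 for Si023321m and plant 4 for ACHT4. The variance between heat plants, after TMM scaling, was 0.561 times that of counting alone for Si023321m, 1.65 times for Si021416m, 2.53 times for ACHT4 and 3.23 times for Si001231m. Whether the residual counts are reads of these transcripts or misplaced reads was not tested. Single reads, left when trimming removed a mate, gave 10.4% to 16.7% of each transcript's counts under heat and 10.9% to 17.1% under control conditions, so the residual counts were not mostly single reads.

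Between control plants, the raw counts of each transcript spanned 2.14 times for ACHT4, 2.15 times for Si021416m, 2.50 times for Si023321m and 2.56 times for Si001231m. TMM scaling narrowed the span to 1.26 times for Si021416m, 1.62 times for Si001231m, 1.66 times for ACHT4 and 2.38 times for Si023321m. The coefficient of variation (CV, the SD as a percentage of the mean) was 10.4% for Si021416m, 19.4% for Si001231m, 20.0% for ACHT4 and 31.0% for Si023321m. The median over the set was 19.7%, and it was 13.0% over all 6018 transcripts with at least 100 counts in every control plant, of which the middle 50% lay between 9.19% and 18.2%. With library size only, the medians were 33.3% for the set and 18.7% for the 6018 transcripts. The median of the control mean counts was 237 for the set and 442.5 for the 6018, and the part of this difference in the CV was not tested.

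The 4 transcripts did not share one order of the control plants. On the TMM scale, control plant 1 was the lowest for 3 of them, at 0.755 times the mean for Si001231m, 0.598 times for Si023321m and 0.752 times for ACHT4. Control plant 4 was the lowest for Si021416m, at 0.923 times the mean, with plant 1 at 0.931 times. The highest control plant was plant 4 for Si001231m (1.22 times the mean), plant 3 for Si021416m (1.17 times) and ACHT4 (1.25 times), and plant 2 for Si023321m (1.42 times). Plant 2 is the control plant with the large share of counts listed for reads aligned to several places. Whether this bears on its level of Si023321m was not tested. The variance between control plants was 2.82 times that of counting alone for Si021416m, 9.34 times for ACHT4, 17.2 times for Si023321m and 20.4 times for Si001231m. This ratio grows with the number of counts as well as with the CV, so its order is not that of the CV.

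**Figure D2:**
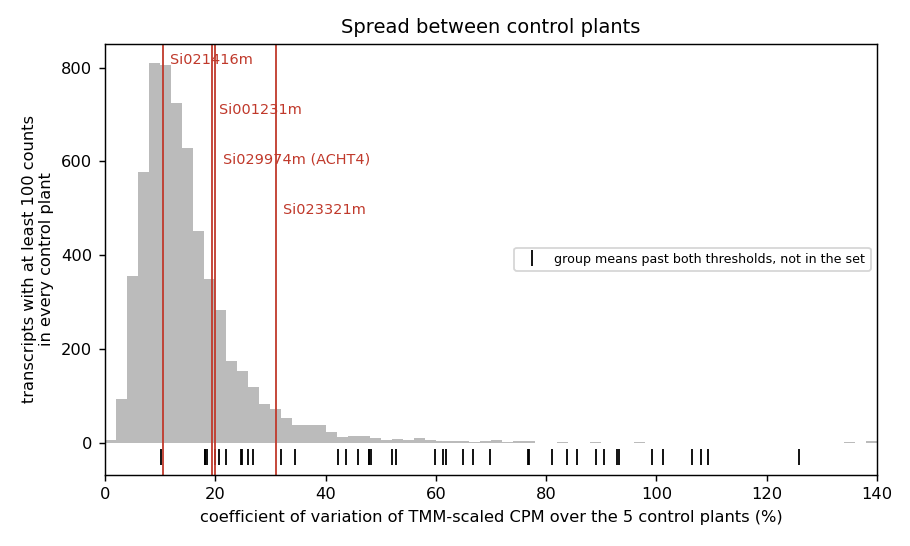
Histogram of the CV of TMM-scaled CPM over the 5 control plants for the 6018 transcripts with at least 100 counts in every control plant, with values above 140% in the last bar. Red lines mark the 4 transcripts, from 10.4% for Si021416m to 31.0% for Si023321m, and black ticks mark the 42 transcripts whose group means pass both thresholds but which have a plant beyond one of them. Of these 42, 31 varied more between control plants than any of the 4. This is in part fixed by the rule. A control plant under 100 counts left out 20 of the 42, and 14 more failed at both limits.

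The set rests on counts near its thresholds. Closest inside the control limit were Si023321m with a lowest control count of 115, Si021416m with 151 and ACHT4 with 152. Closest outside were Si005875m with 99, Si037383m with 95 and Si002064m with 84 counts in their lowest control plant. At the heat limit, the highest heat counts were 20 for ACHT4, 17 for Si001231m and 14 for Si023321m inside, and 21 for Si025890m, 23 for Si034446m and 25 for Si016870m outside. Si004692m, with 26 counts in 1 heat plant, had a log2 fold change of -6.29, beyond that of 3 of the 4. Among all tested transcripts, 38 had a fall at least as large as that of ACHT4, and only 4 of these are the set. With at most 30 counts in every heat plant the set would hold 10 transcripts, and with at most 10 none. With at least 50 counts in every control plant it would hold 13, and with at least 200 only Si001231m. Without control plant 1 it would hold 7, with Si002064m, Si004892m and Si037383m added to the 4.

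**Figure D3:**
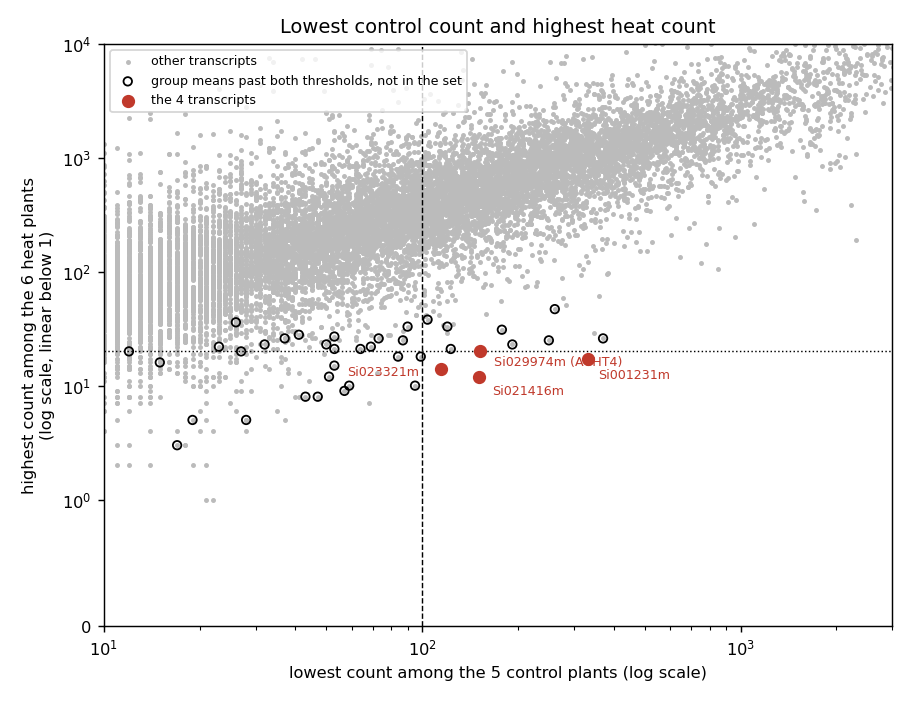
The lowest count among the 5 control plants (horizontal, log scale) and the highest count among the 6 heat plants (vertical, log scale, linear below 1) for transcripts with at least 10 counts in every control plant; the axes end at 3000 and 10000 counts. Dashed and dotted lines are the limits of 100 and 20 counts, the 4 transcripts are red, and open circles are transcripts whose group means, but not all plants, pass both limits. The 4 lie alone in the lower right field, with several open circles just outside.

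When group means were used in place of every plant, 46 transcripts had a mean of at least 100 counts in control plants and at most 20 in heat plants, and the 4 were among them. Of the other 42, 20 were left out because a control plant had fewer than 100 counts, 8 because a heat plant had more than 20 and 14 for both reasons. Control plant 1 had fewer than 100 counts for 27 of the 42, control plant 5 for 21, control plant 2 for 14, and control plants 3 and 4 for 3 each. The median CV between control plants was 56.3% for these 42 transcripts. Leaving out transcripts with a low control plant favours a large spread among the 42, so nothing about the 4 is read from this value.

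Of the 42, 6 have a name in the study's lists used here. Both transcripts named DREB1A, a transcription factor of the cold response, had 0 counts in control plant 1, with 0 to 2 counts in heat plants and up to 423 in control plants for Si011005m, and 2 to 13 in heat plants and up to 304 in control plants for Si007199m. RRTF1 (Si014237m), a redox-responsive transcription factor, had 0 to 5 counts in heat plants and 19 to 216 in control plants, and WRKY18 (Si006914m), a transcription factor of defence responses, had 5 to 20 counts in heat plants and 27 to 497 in control plants. DREB1C (Si031001m) passed in every control plant, with 261 to 809 counts, but had 47 counts in heat plant 1 and 3 to 18 in the other heat plants. ZOG (Si010045m), an enzyme that stores the cytokinin zeatin as a glucoside, had 9 to 21 counts in heat plants and 53 to 177 in control plants.

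Of the study's list of oxidative stress genes, 47 transcripts were used here, those that could be tied to an identifier, and its other entries, such as those of the ascorbate and glutathione pathway, were not used here. ACHT4 (Si029974m) had the lowest log2 fold change of the 47. It is the one that the rule chose on this contrast, so nothing is read from this place. Outside the set, 46 of them were tested: 20 were lower and 11 higher under heat, with a median log2 fold change of -0.25, where 30.9% of all 18065 tested transcripts were lower and 32.2% higher. With library size only, 6 of the 46 were lower and 32 higher, where 7.67% of all tested transcripts were lower and 73.2% higher. The 4 transcripts named TRX H9, thioredoxins of the h type, differed in direction. The log2 fold change was -2.62 ± 0.31 (SE) for Si023614m (edgeR adjusted p = 5.48e-06) and -2.27 ± 0.27 (SE) for Si023612m (adjusted p = 5.77e-06). It was 1.20 ± 0.18 (SE) for Si003271m (adjusted p = 5.35e-05), and -0.92 ± 0.33 (SE) for Si023615m (adjusted p = 0.0243), whose groups overlapped and whose value was 0.14 with library size only.

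The study gives the name ACHT4 to a second transcript, Si036947m, which the rule did not choose. It had 3721, 8420, 2251, 2237, 4098 and 3515 counts in heat plants 1 to 6, against 620, 436, 856, 681 and 585 counts in control plants 1 to 5. Every heat plant was above every control plant, the opposite direction to Si029974m. Its level was 69.1 ± 33.3 CPM in heat plants (SD, n = 6) and 21.4 ± 3.05 CPM in control plants (SD, n = 5), a rise of 1.69 ± 0.27 on the log2 scale (SE; edgeR adjusted p = 8.48e-05), and 1.45 without heat plant 2. The ratio of Si036947m to Si029974m counts, which also carries the lengths of both transcripts, was 315 over the heat plants together and 2.77 over the control plants together. The rule required low heat counts and high control counts of Si029974m, so the gap between these ratios is in part fixed by it. Reads that align to both transcripts would have been left out of both counts, so the 2 levels are uncertain if their sequences are near-identical.

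Another transcript of this branch, ACHT2 (Si025560m), had 4.11 ± 0.694 CPM in heat plants (SD, n = 6) and 6.08 ± 0.986 CPM in control plants (SD, n = 5). The groups overlapped, and its log2 fold change of -0.56 ± 0.14 (SE; edgeR adjusted p = 0.00353) became 0.51 (adjusted p = 0.00339) with library size only.

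**Figure D4:**
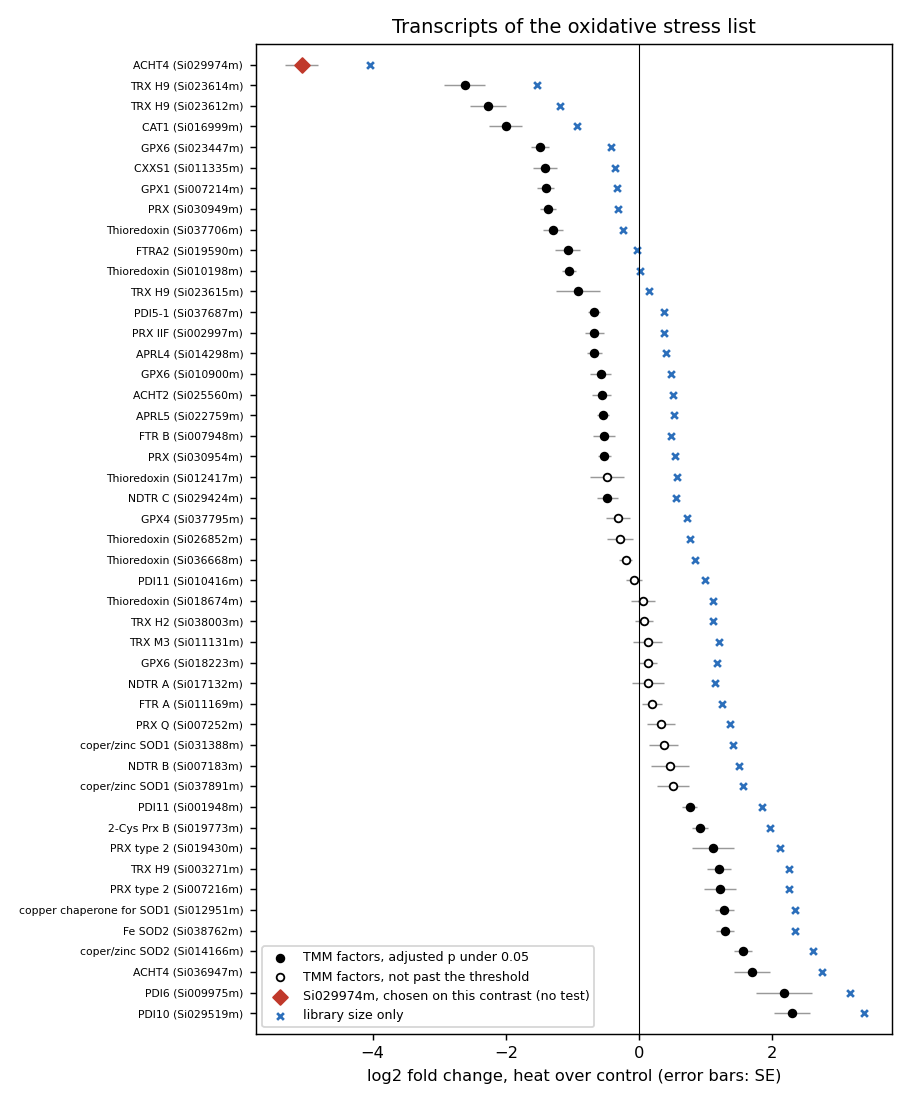
Log2 fold changes of the 47 transcripts used here from the oxidative stress list, heat over control, with SE bars, for TMM factors (circles) and for library size only (blue crosses). ACHT4 Si029974m, the red diamond, is lowest at -5.07 (-4.04 with library size only). The rule chose it on this contrast, so nothing is read from its place. The other ACHT4 transcript, Si036947m, is at 1.69 (2.75). Of the 46 transcripts other than Si029974m, 16 lie on different sides of 0 under the 2 scalings.

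None of the 4 transcripts is in the study's lists of hormone-related or ethylene-responsive genes, as far as these were used here. The study also shows genes of the hormones abscisic acid and auxin, which were not among the lists used, so the counts below do not cover them. Of 29 tested ethylene-responsive transcription factors, a family that includes DREB1A, DREB1C and RRTF1, 19 were lower and 0 higher under heat by edgeR (1 higher at an unadjusted p under 0.05, and 1 higher by DESeq2), with a median log2 fold change of -1.63, and 14 were lower and 10 higher with library size only. Of 89 tested transcripts in the other hormone lists together, 49 were lower and 20 higher, with a median of -0.70, and 20 were lower and 41 higher with library size only. The pooled lists differ in role and direction. With TMM factors, 2 jasmonic acid-inducible transcripts were lower and 5 higher. It was 5 and 5 for cytokinin metabolism and 2 and 2 for gibberellic acid regulators. Each other pooled list had more lower than higher. The sterol biosynthesis list (3 lower, 3 higher) was not pooled. Over all tested transcripts, 30.9% were lower and 32.2% higher with TMM factors, and 7.67% were lower and 73.2% higher with library size only. The study shows these lists for the same plants, and how it chose their entries was not examined.

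Near-silencing was rarer than its reverse at the same thresholds. The set is 4 of the 6018 transcripts with at least 100 counts in every control plant (0.0665%), whereas 103 of the 8909 transcripts with at least 100 counts in every heat plant (1.16%) had at most 20 counts in every control plant. On TMM-scaled counts the difference was smaller, with 16 of 8052 (0.199%) nearly silenced and 46 of 8236 (0.559%) switched on. These shares are descriptions and were not tested. The 4 transcripts were among these 16, and on counts scaled to library size ACHT4 dropped out and Si005875m took its place.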

How the data were processed

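Leaves of 6 heat-stressed and 5 control plants were analysed. The deposited values are counts without normalization: the authors removed ribosomal RNA, trimmed with Trimmomatic, mapped to *S. italica* v2.1 by TopHat2 and assigned reads to exons by the union mode of HTSeq, which drops reads on several transcripts and reads aligned to several places. Whether counting used strand is not given in the sources used here, so reads of an antisense transcript cannot be told apart. Each plant has 2 files, read pairs and single reads, which were added for the 40599 transcripts. Summary lines, which name no transcript, were 42.4% to 50.5% of all lines' counts in heat plants and 30.3% to 67.3% in control plants, and were left out.

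The rule was applied to these sums. All transcripts passing filterByExpr (18065) were fitted with edgeR 4.0.16 (TMM factors, quasi-likelihood test, Benjamini-Hochberg adjusted p under 0.05) in R 4.3.3. The fit was tested on simulated data and the rule on a planted table. The simulated plants of both groups were drawn from a shared profile with planted changes, so the choice of scaling was not tested there. Named were all 4 members, the 3 transcripts nearest outside each threshold and transcripts that the study names. The transcripts, lists and tests were chosen with earlier results of these data known, and the names ACHT2, TRX H9, Si036947m and those past the mean-based rule were picked after their values were seen. No pair of plants in a group had counts that differed by no more than sampling noise. The labels call each sample a plant, so p-values measure the spread between plants within 1 chamber per condition. Alternatives were DESeq2 1.42.0, other scaling factors, filters, read pairs only, a replicate block and each plant left out. Figures were drawn with matplotlib 3.10.9.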

Additional observations from a re-analysis of the deposited data

Results flagged for a closer look

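Of 20 groups of plant values examined, for the 4 transcripts and for the second ACHT4 transcript, 1 had a plant far from the rest. For Si036947m, heat plant 2 had 8420 counts, against 4098 counts in the next heat plant, a gap of 0.699 of the range of the 6 heat plants. This gap is on counts not scaled for depth. With TMM factors the level was 129 CPM in heat plant 2, 79.8 CPM in the next and 37.4 CPM in the lowest, a smaller part of the range. At the 95% limit used, about 1 of 20 groups would be picked out by chance, and what sets heat plant 2 apart was not tested.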

How the results depend on the processing

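The number of transcripts past the rule was 13 with at least 50 counts in every control plant, 1 with at least 200, 0 with at most 10 and 0 with at most 3 in every heat plant, 16 on counts scaled with TMM factors and 46 with group means, which was chosen after seeing the data. It was 4 on counts scaled to library size, 3 of them of the set, and 5 with read pairs only. Leaving out 1 plant at a time gave 4 to 7, the most without control plant 1. The median CV of the set between control plants was 33.3% with library size only and 15.3% to 21.2% with each control plant left out. A filter of 10 counts in every plant removes the set by construction, leaving 0 of the 4 among the transcripts called lower. The calls of the 4 under other alternatives rest on the counts that chose them, and nothing is read from them.

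Library size only gave 1385 transcripts lower and 13216 higher (5583 and 5818 with TMM factors), 20 lower and 41 higher in the hormone lists, and 6 lower and 32 higher in the oxidative stress list. It turned the log2 fold changes of ACHT2 (Si025560m) to 0.51 and of the TRX H9 transcript Si023615m to 0.14. For Si023615m the edgeR adjusted p was also above 0.05 in other alternatives. It was 0.0576 with the replicate block, 0.0507 to 0.0596 without heat plant 1, 3 or 4, and 0.0982 without control plant 2. The fold changes of the 4 transcripts moved by more than 1 SE under this scaling alone.

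Plants carry the same numbers in both groups. Across transcripts, departures from the group mean correlated at 0.0696 on average between plants of one number (-0.0468 to 0.194), against -0.0174 for other pairs, and 2 of 5 control plants correlated best with their own number, so the numbers were not taken as pairs. With a replicate block over plants 1 to 5, 5119 transcripts were lower and 5563 higher, against 5214 and 5616 in the same plants without it.

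Counts of 3 to 20 in heat plants limit the precision of every residual level given. No transcript lengths were used, so counts set side by side for different transcripts also carry their lengths.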
